A study of Caenorhabditis elegans with 4 samples.

Results

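The genes described here are 8 nuclear genes of the mitochondrial ATP synthase, asb-1, asb-2, asg-1, asg-2, atp-2, atp-3, atp-4 and atp-5, taken by symbol from the count matrices of a single-nucleus RNA-seq experiment in Caenorhabditis elegans. All 8 were among the 46926 features of the matrices. The first 4 of them form a pair of paralog pairs, asb-1 with asb-2 and asg-1 with asg-2, and the main question was how each pair is divided between germline and somatic nuclei, and then how the 8 genes differ between libraries. The 4 libraries compared held nuclei from whole worms at day 1 of adulthood, 1 library per condition. The ctrl library came from wild-type N2 worms, the ent-1KO and ent-2KO libraries from mutants lacking 1 of the nucleoside transporter genes ent-1 and ent-2, and all 3 were fed HT115 bacteria carrying the L4440 control plasmid. The ent-1KO;ent-2KD library came from ent-1KO worms fed HT115 bacteria for ent-2 RNAi, so it shares its mutation with the ent-1KO library and differs from it in the food. Each library pooled many worms, nuclei were sorted by DNA stain, and no condition was repeated, so no difference between libraries carries a test. The intervals given below are exact 95% intervals for counting error only.

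After removal of predicted doublets the libraries held 10577 to 13151 nuclei and 18503987 to 28792812 UMIs (unique molecular identifiers, the count of captured RNA molecules), with a median of 1392 to 1834.5 UMIs per nucleus. Of 51854 distinct barcodes, 293 occurred in more than 1 library. ent-1 was at 139.97 and 142.3 CPM (counts per 1e6 UMIs) in ctrl and ent-2KO and at 16.9 and 14.5 CPM in ent-1KO and ent-1KO;ent-2KD, and ent-2 was at 26.4, 24.5, 9.46 and 16.8 CPM in ctrl, ent-1KO, ent-2KO and ent-1KO;ent-2KD. Nuclei were clustered without the 8 genes, and clusters were named by marker lists as germline-like, sperm-like, embryo-like or as one of the somatic classes. Germline-like nuclei made up 57.3%, 54%, 55.8% and 25.1% of nuclei in the same order of libraries, and embryo-like nuclei 8.71%, 5.86%, 8.42% and 0.0681%. Clusters that no marker list named held 21.3% to 42.8% of nuclei and were counted neither as germline nor as soma. Somatic-like nuclei, the pool of body wall muscle, intestine, neuron, hypodermis, seam and excretory, sheath and spermatheca, and glia classes, numbered 1185, 1379, 1454 and 3286.

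The ATP synthase of the inner mitochondrial membrane uses the proton gradient built by the respiratory chain to make ATP. Its catalytic head, F1, turns ADP and phosphate into ATP, its membrane part, Fo, carries the proton channel, and a peripheral stalk holds the head still while the central stalk rotates. In C. elegans most subunits come from 1 nuclear gene, and a few have tissue-biased copies, of which asb-1 is known as the germline form of subunit b. X-linked genes are largely silent in the nuclei of the mitotic and early meiotic germline, and many X-linked metabolic genes have autosomal copies that are used there.

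The paralog pairs have 1 copy on an autosome and 1 on the X chromosome. asb-1 (WBGene00000206) and asb-2 (WBGene00000207) encode subunit b, the main rod of the peripheral stalk, and lie in assembly WBcel235 on chromosome III at 4594543 to 4595821 on the minus strand and on X at 4469766 to 4471476 on the plus strand. asg-1 (WBGene00000209) and asg-2 (WBGene00000210) encode subunit g, a small membrane subunit where enzyme dimers meet, and lie on chromosome I at 8692946 to 8693468 and on X at 6841258 to 6842121, both on the plus strand. The other 4 genes are single copies on autosomes. atp-2 (WBGene00000229, chromosome III, 5228417 to 5230536, plus strand) encodes the catalytic beta subunit of F1. atp-3 (WBGene00000230, chromosome I, 5428533 to 5429908, minus strand), atp-4 (WBGene00020275, chromosome V, 6426246 to 6427112, minus strand) and atp-5 (WBGene00007385, chromosome V, 11122901 to 11123867, minus strand) encode the stalk subunits OSCP, F6 and d. All are protein-coding genes. The 3′ end of asg-1 overlaps the end of K07A12.5 on the opposite strand, and the 3′ end of atp-4 overlaps the start of T05H4.11 on the same strand, so reads in that short stretch cannot be given to atp-4 alone.

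The copies of subunit b went opposite ways between germline-like and somatic-like nuclei in all 4 libraries. asb-1 was at 131, 141.9, 125 and 128 CPM in germline-like nuclei of ctrl, ent-1KO, ent-2KO and ent-1KO;ent-2KD, and at 56.6, 69.2, 55.7 and 34.4 CPM in somatic-like nuclei. Every germline value lay above every somatic value. asb-2 was at 61.9, 59.3, 45.2 and 101 CPM in germline-like nuclei and at 117, 136, 115 and 227 CPM in somatic-like nuclei, with the germline value below the somatic value of the same library each time and no overlap between the sets. On the log2 scale the germline to soma ratio of asb-1 was 1.2, 1.03, 1.16 and 1.89, a mean of 1.32 ± 0.38 (SD over the 4 libraries, n = 4, which differ in genotype). That of asb-2 was -0.92, -1.2, -1.35 and -1.16, with a mean of -1.16 ± 0.18 (SD, n = 4). The interval of the ratio excluded 0 in 4 of 4 libraries for either gene. The share of all genes with such intervals was not counted, and the intervals cover counting error alone. The share of all genes without overlap between the sets was not counted either, here or for subunit g below. Differences between these tissues were common. Of 7538 genes compared, 30.9% were at least 2-fold higher in germline-like nuclei in 4 of 4 libraries and 29.2% lower.

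The copies of subunit g were divided in the same directions. asg-1 was at 115, 139, 118.8 and 167 CPM in germline-like nuclei and at 69.9, 95.3, 63.7 and 83.3 CPM in somatic-like nuclei, again with no overlap. asg-2 was at 67.9, 71.9, 50.6 and 103 CPM in germline-like nuclei and at 146, 165, 90.2 and 226 CPM in somatic-like nuclei. The germline value of asg-2 in ent-1KO;ent-2KD exceeded the somatic value in ent-2KO, so these sets overlapped across libraries, though not within any library. The log2 ratio of asg-1 averaged 0.79 ± 0.20 (SD, n = 4; range 0.55 to 1.00) and that of asg-2 -1.07 ± 0.16 (SD, n = 4; range -1.2 to -0.84).

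**Figure D1:**
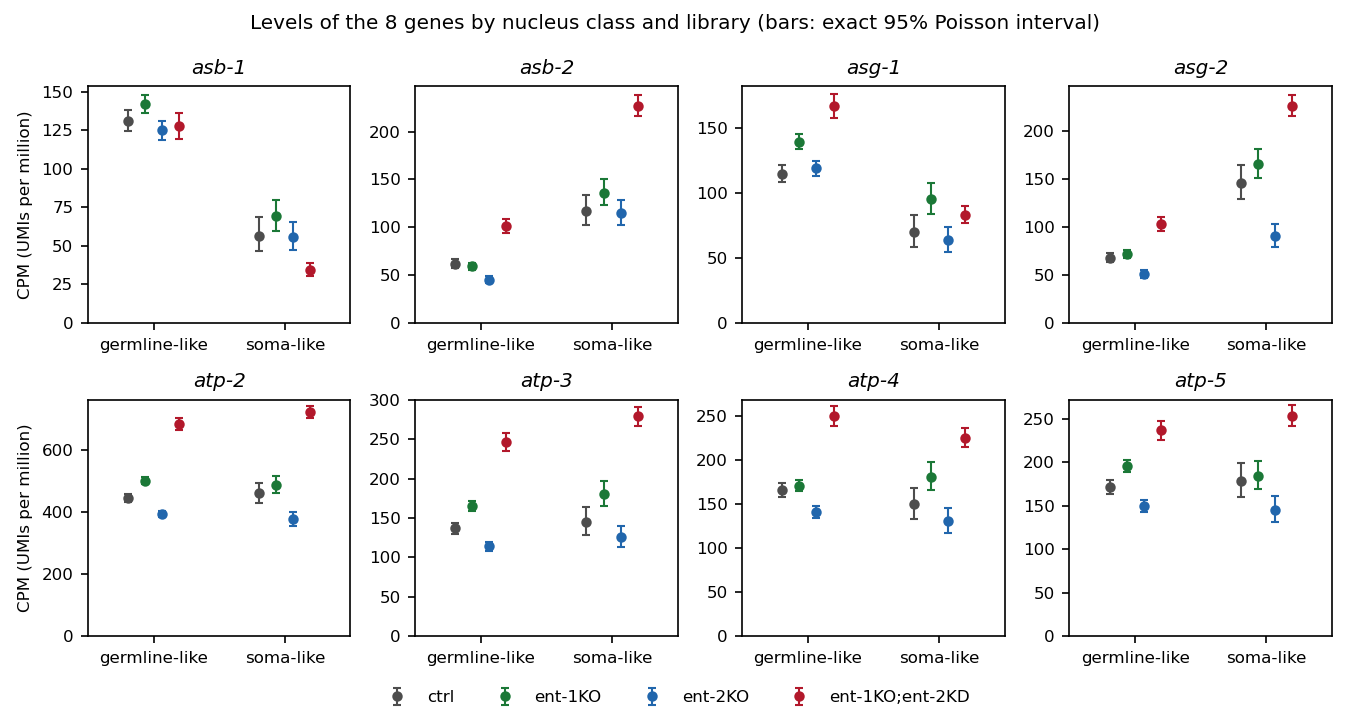
Level of each gene in CPM (linear axis from 0) in germline-like and soma-like nuclei, with 1 point per library and exact 95% Poisson intervals. asb-1 and asg-1 are higher in the germline-like nuclei of every library, asb-2 and asg-2 are higher in the soma-like nuclei, and the 4 atp genes sit at similar levels in both, with the ent-1KO;ent-2KD points highest for these 4 genes and for asb-2 and asg-2.

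The single-copy subunits stood at similar levels in the nuclei named germline-like and somatic-like. atp-2 was at 447, 502, 394 and 685 CPM in germline-like nuclei and at 461, 489, 378 and 724 CPM in somatic-like nuclei, and its log2 ratio averaged -0.01 ± 0.07 (SD, n = 4). The means for atp-3, atp-4 and atp-5 were -0.13 ± 0.04, 0.08 ± 0.11 and -0.01 ± 0.09 (SD, n = 4). For each of the 4 genes the interval of the ratio excluded 0 in 1 library, ent-1KO;ent-2KD, where the ratios lay between -0.18 and 0.15. These means depended on the grouping of nuclei. Over 10 alternatives they ran from -0.44 to 0.20 for atp-2 and from -0.59 to 0.12 for atp-3. For atp-4 they ran from -0.32 to 0.26 and for atp-5 from -0.39 to 0.12. An unnamed ribosomal-rich cluster of 5604 nuclei, counted on neither side, held atp-2 at 1121 CPM and atp-3 at 432 CPM.

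The summed level of each pair differed less between the tissues than its copies did. asb-1 and asb-2 together came to 193, 201, 170 and 229 CPM in germline-like nuclei and to 174, 205, 171 and 261 CPM in somatic-like nuclei, a mean log2 ratio of -0.02 ± 0.14 (SD, n = 4). asg-1 and asg-2 together came to 183, 211, 169 and 269 CPM against 216, 260, 154 and 309 CPM, a mean log2 ratio of -0.15 ± 0.20 (SD, n = 4). The interval of the subunit b sum excluded 0 in ent-1KO;ent-2KD alone, at -0.19 (-0.28 to -0.09). That of the subunit g sum excluded 0 in 3 of 4 libraries, each lower in the germline, at -0.24 in ctrl, -0.30 in ent-1KO and -0.20 in ent-1KO;ent-2KD. Capture may differ between the copies of a pair, which limits what their sum measures.

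Against a rule of at least a 2-fold difference in the same direction in 4 of 4 libraries, asb-1 was called higher in the germline and no member was called lower. Over all 7538 genes that passed the expression minimum, 30.9% were called higher in germline-like nuclei and 29.2% lower, so 1 of 8 members higher and 0 of 8 lower is no excess. asb-2 missed the 2-fold line in ctrl alone, and asg-2 in ent-2KO alone. The asb-1 call did not hold when doublets were kept, when clusters rich in ribosomal protein RNA were named, or when somatic classes were weighted equally. The median gene was higher in germline-like nuclei, at 0.77 on the log2 scale, and relative to it asg-1 was at the middle of all genes (percentile 50.6) and asb-1 above the middle (percentile 71.5). The median log2 ratio of the 8 members was -0.01. Chromosomes differed far more than the members did. The median was -2.89 over 734 X-linked genes, of which 81.5% were called lower in the germline, and 0.93 over 6790 autosomal genes, of which 33.9% were called higher. Thus asb-2 and asg-2 were less depleted from germline-like nuclei than the median X-linked gene, and the 4 atp genes stood lower than the median autosomal gene.

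**Figure D2:**
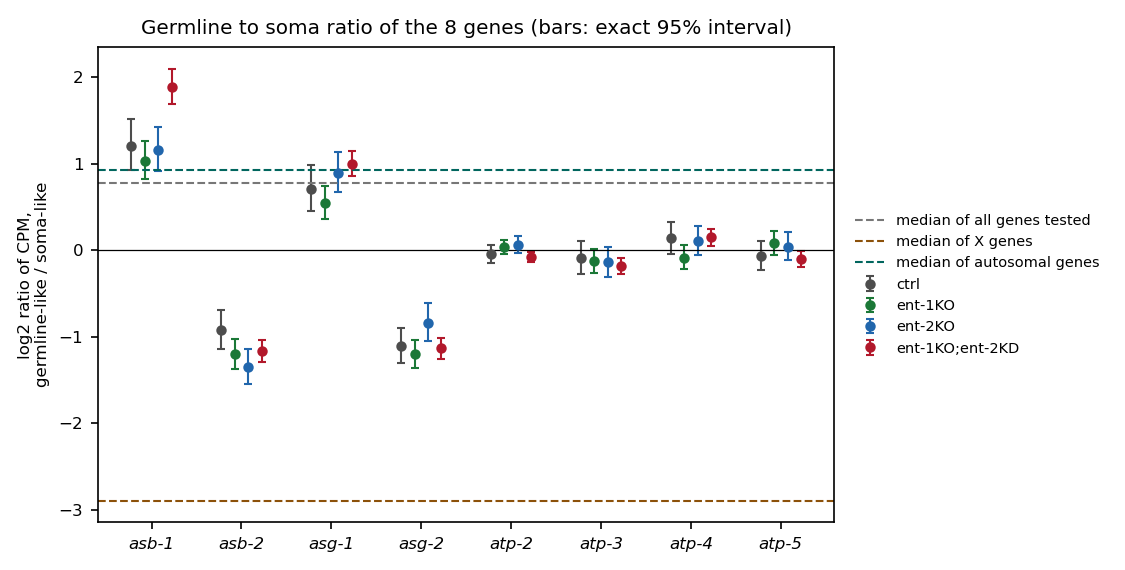
Log2 ratio of CPM between germline-like and soma-like nuclei for the 8 genes, 1 point per library with its exact 95% interval, beside the medians over all genes tested, X-linked genes and autosomal genes (dashed lines). asb-1 and asg-1 lie above 0, asb-2 and asg-2 lie near -1, far above the X-linked median of -2.89, and the atp genes lie near 0.

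RNA released from broken cells enters droplets of all nuclei and can make tissues look more alike. All 47 listed germline markers had UMIs in somatic-like nuclei, and their summed level there was 34.4%, 31.6%, 34.8% and 20.3% of the level in germline-like nuclei of ctrl, ent-1KO, ent-2KO and ent-1KO;ent-2KD. asb-1 in somatic-like nuclei was at 43.2%, 48.7%, 44.6% and 27% of its germline level, above the marker share in each library. Muscle-like and neuron-like nuclei taken alone also had it above that share in each library, but no interval was set on these percentages. Some rest on few UMIs of asb-1, such as 24 in muscle-like nuclei of ent-2KO (24.2% against 21.8%). Another is 27 in neuron-like nuclei of ctrl (49.5% against 41.7%). In intestine-like nuclei asb-1 was below in ctrl (35.5% against 41.2%) and close in ent-1KO;ent-2KD (25.2% against 24.5%). It was above there in ent-1KO (53.2% against 35.3%) and ent-2KO (60.6% against 37.2%). In the other direction the 28 body wall muscle markers summed in germline-like nuclei to 1.53%, 1.44%, 1.28% and 1.95% of their level in muscle-like nuclei. The median over single muscle markers was higher, at 4.95%, 3.88%, 3.20% and 8.07%. For asb-2 the germline level was 57.8%, 42.7%, 33.9% and 53.1% of its muscle level. asb-2 was not confined to muscle, with 131 to 231 CPM in the unnamed clusters. The muscle markers therefore set no background level for asb-2, and the part of free RNA in its germline level was not tested. When a profile of the whole library was subtracted from each class, the ratio of asb-1 rose to a mean of 3.09 ± 0.78 (SD, n = 4). That of asg-1 rose to 1.53 ± 0.43, and those of asb-2 and asg-2 fell to -2.48 ± 0.34 and -2.34 ± 0.45 (SD, n = 4). The profile mixes germline and somatic RNA and was taken off at an upper limit, 34.9% to 48.4% of UMIs. Its removal by itself widens the split of the copies, so the larger ratios are no separate evidence for the split.

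The share of a pair's UMIs that came from 1 copy does not depend on how classes are scaled, and it was used to order the classes. Because the efficiency of 3′ capture may differ between copies, the share is compared between classes only. asb-1 gave 67.9% (65.8% to 69.9%), 70.5% (68.9% to 72.1%), 73.4% (71.5% to 75.2%) and 55.7% (53.3% to 58.1%) of the UMIs of its pair in germline-like nuclei, and 32.6%, 33.7%, 32.7% and 13.2% in somatic-like nuclei. asg-1 gave 62.8%, 66.0%, 70.1% and 61.8% in germline-like nuclei and 32.4%, 36.6%, 41.4% and 27% in somatic-like nuclei. The interval of the germline share lay wholly above that of the somatic share in 4 of 4 libraries for either pair. With free RNA subtracted at the same upper limit, which widens the split by itself, the mean share of asb-1 was 82.5% in the germline and 10.5% in the soma. That of asg-1 was 80.6% and 22.1%.

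Body wall muscle had the lowest mean share of asb-1, at 21% ± 7.0 (SD, n = 4), followed by hypodermis at 23.1% ± 15.4, intestine at 27.8% ± 11.1, sheath and spermatheca at 30.9% ± 11.4, neurons at 35.9% ± 14.1 and the seam and excretory class at 37.9% ± 12.07 (SD, n = 4). Neighbours in this order differed by less than their spread over libraries. Over the 6 somatic classes with at least 50 nuclei in every library, the share of asb-1 was under 50% in 24 of 24 class and library groups, and that of asg-1 in 22 of 24. The exceptions for asg-1 were neuron-like nuclei of ent-2KO, at 61.4%, and sheath and spermatheca nuclei of ent-2KO, at 52.9% (35.1% to 70.2%). The interval lay wholly under 50% in 14 of 24 groups for asb-1 and in 12 of 24 for asg-1. As capture may differ between copies, 50% does not mark equal levels of them. Sperm-like nuclei had a mean asb-1 share of 63.7% ± 17.1 (SD, n = 4). Embryo-like nuclei lay between germline and soma, at 44.9%, 46.8% and 57.3% for asb-1 and 49.3%, 41.7% and 57.5% for asg-1 in ctrl, ent-1KO and ent-2KO, and were too few in ent-1KO;ent-2KD.

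**Figure D3:**
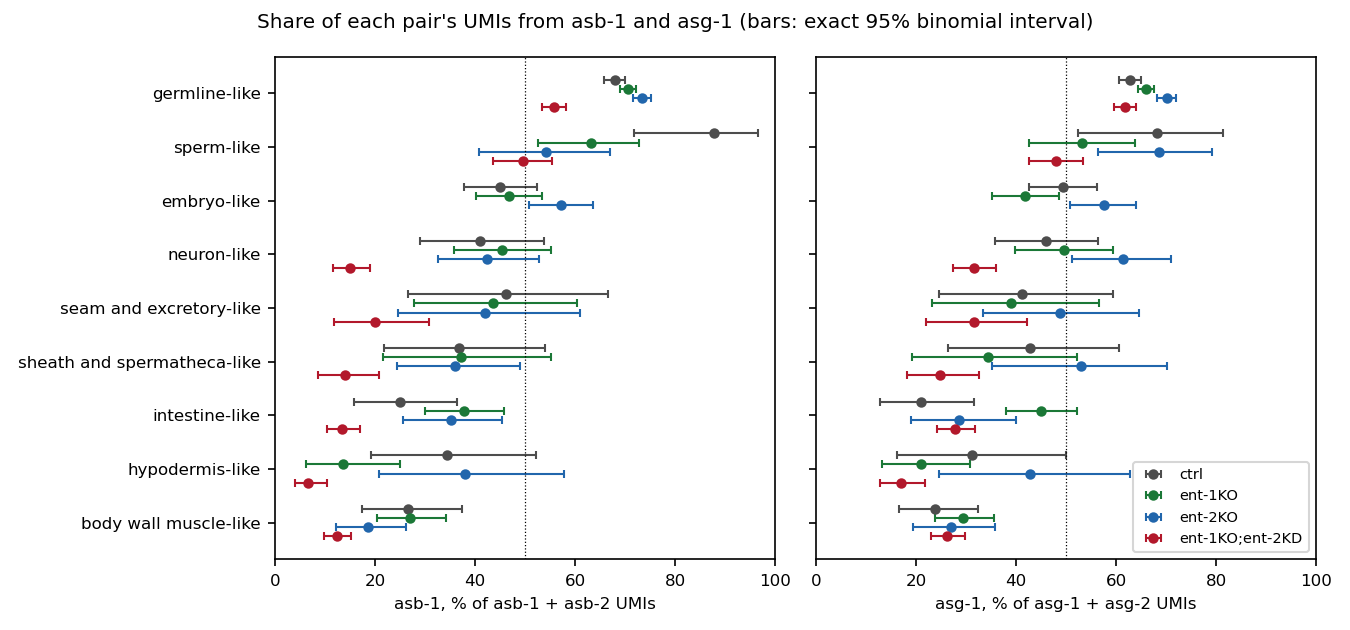
Share of asb-1 in the UMIs of asb-1 and asb-2 (left) and of asg-1 in those of asg-1 and asg-2 (right), in percent, for each named class and library with exact 95% binomial intervals. Germline-like points lie right of 50%, embryo-like points near it, and somatic points left of it apart from 2 asg-1 points of ent-2KO, with the ent-1KO;ent-2KD point lowest in 6 of 6 somatic classes for asb-1 and in 4 of 6 for asg-1.

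The largest clusters left without a name had somatic shares. In the cluster with the most ribosomal protein RNA, led by the aspartic protease gene asp-6 and best matched by intestinal markers, asb-1 gave 31.9%, 35.0%, 40.3% and 11.4% of the pair and asg-1 32.7%, 38%, 41.3% and 27.2%. In the cluster led by pqn-72 the shares were 39.0%, 30.9%, 32.1% and 10.5% for asb-1 and 34.2%, 24.3%, 26.5% and 19.1% for asg-1. The 8 members summed to 2968, 3096, 2186 and 4115 CPM in the first of these clusters, whose ribosomal protein share was 16.7% to 27.5%.

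In single nuclei the 4 copies were sparse. After each nucleus was thinned to 500 UMIs, asb-1 was seen in 6.55%, 6.20%, 6.55% and 5.97% of germline-like nuclei and in 3.12%, 3.63%, 2.68% and 1.77% of somatic-like nuclei, and asb-2 in 3.56%, 3.6%, 2.69% and 5.73% against 5.40%, 7.32%, 6.33% and 11.3%. Without thinning, asb-1 was seen in 19.3%, 25.4%, 21.9% and 25% of germline-like nuclei at median depths of 1535, 2097, 1849 and 2126.5 UMIs, and in 7.51%, 11.7%, 9.15% and 6.39% of somatic-like nuclei at 1169, 1576, 1328.5 and 1631 UMIs. The germline helicase gene glh-1, which muscle should lack, was seen after thinning in 7.86%, 8.49%, 8.19% and 2.12% of muscle-like nuclei and in 40.8%, 40.5%, 44.8% and 25.7% of germline-like nuclei. The muscle myosin gene unc-54 was seen in 6.09%, 6.89%, 5.80% and 10.6% of germline-like nuclei and in 28.6%, 33.7%, 42.7% and 46.7% of muscle-like nuclei. asb-1 itself was seen in 2.14%, 1.92%, 1.13% and 1.2% of muscle-like nuclei, and asb-2 in 4.29%, 7.67%, 7.34% and 8.37%. Both markers are seen in far more nuclei of their own tissue than the copies are, so their shares elsewhere set no background level for the copies, and the part of free RNA in single nuclei was not tested.

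Among the germline-like clusters the pairs were not divided evenly. In the largest of them, cluster 0, asb-1 gave 74.1%, 78.6%, 79.4% and 61.3% of its pair in ctrl, ent-1KO, ent-2KO and ent-1KO;ent-2KD, and clusters 5 and 9, which had the highest summed level of listed oocyte genes among the 6 germline-like clusters, gave 57.1% to 79.2%. Cluster 1 gave 62.7%, 64.5%, 66.5% and 44.9%, and cluster 12 gave 33%, 38.8%, 40.5% and 55.9%. Cluster 10, which like cluster 12 was led by Y46H3C.7 but matched no marker list and so had no name, gave 27%, 26.8%, 24.7% and 57.5%. asg-1 gave 66.1%, 70.2%, 74.1% and 67.6% in cluster 0 and 33.8%, 37.9%, 42.1% and 49.8% in cluster 10. In cluster 12 it gave 41.9%, 61.2%, 50.6% and 57.9%, where the ent-1KO value was the highest and lay above that of cluster 1 (60.4%). These clusters also differed in the share of all UMIs that came from X-linked genes. It was 3.69%, 4.16%, 3.36% and 3.35% in cluster 0, 6.96%, 7.09%, 7.14% and 5.32% in cluster 12 and 11%, 11.1%, 11% and 7.88% in cluster 10, against 12.2%, 12.8%, 12.2% and 13.5% in somatic-like nuclei. The 3 clusters with the least X-linked RNA (0, 5 and 9) had asb-1 shares above 50% in every library, and cluster 10, with the most in every library, had the lowest share in ctrl, ent-1KO and ent-2KO but not in ent-1KO;ent-2KD. The order did not hold cluster by cluster. Cluster 18, with 6.52% to 8.21% of X-linked UMIs, gave 43.5%, 51.9%, 40.0% and 37.5% (22 nuclei in ent-1KO;ent-2KD), above cluster 12 in ctrl and ent-1KO. Cluster 9 had less X-linked RNA than cluster 0 in every library. Its asb-1 share was also lower in each, though by little in ent-2KO (79.2% against 79.4%). In clusters 10 and 12 the asb-1 share was highest in ent-1KO;ent-2KD, and germline content moved with it. The germline markers summed to 9990 CPM in cluster 10 of that library against 5564 to 6237 CPM in the others, and to 14272 CPM in cluster 12 against 10208 to 10973 CPM. X-linked genes other than the members were among those used to form the clusters, and the part of germline and somatic RNA content in these shares was not tested.

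In level, asb-2 averaged 56 ± 25.6 CPM in cluster 0, 96.1 ± 18.9 CPM in cluster 12 and 126 ± 22.4 CPM in cluster 10 (SD over libraries, n = 4), and asb-1 148 ± 11.3, 70.3 ± 20.6 and 67.9 ± 39.1 CPM (SD, n = 4). atp-2 went the way of asb-1, at 529 ± 129, 300 ± 120 and 280 ± 120 CPM (SD, n = 4), while atp-4 stayed at 175 ± 53.0, 175 ± 28.8 and 166 ± 19.1 CPM (SD, n = 4). The ribosomal protein share of these clusters was 7.58%, 3.90% and 3.64% on average, and its part in the atp-2 values was not tested.

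**Figure D4:**
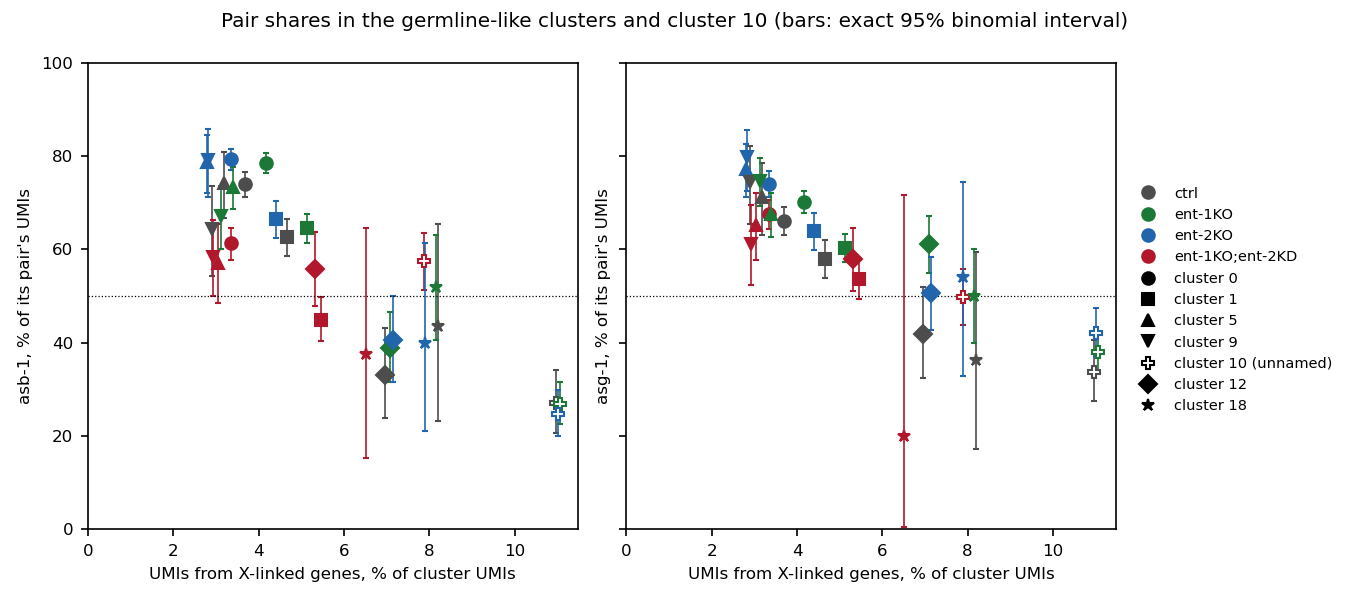
Share of asb-1 (left) and asg-1 (right) in the UMIs of their pair, in percent with exact 95% binomial intervals, against the percent of all UMIs from X-linked genes, for each germline-like cluster and the unnamed cluster 10 in each library. Points of clusters 0, 5 and 9, with 2.80% to 4.16% of X-linked UMIs, lie above 50%, and the 3 cluster 10 points near 11% lie at 24.7% to 27% for asb-1.

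The other subunits of the enzyme resembled the single-copy members. Of 8 further listed ATP synthase genes 7 passed the minimum, none was called in either direction, and their median log2 germline to soma ratio was 0.09, from -0.23 for F58F12.1, the delta subunit, to 0.28 for atp-1, the alpha subunit. The mean levels of Y82E9BR.3, which encodes the c subunit of the proton-driven ring, were 1006 CPM in germline-like and 1035 CPM in somatic-like nuclei. The remaining gene, R05D3.6, did not pass the minimum. The mitochondrially encoded subunit gene atp-6 had a ratio of -0.11 ± 0.13 (SD, n = 4).

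The inhibitors of the enzyme were divided most. mai-1 and mai-2 encode homologs of IF1, the small protein that stops ATP synthase from running backwards. mai-1, on X, was at 7.05, 12.9, 8.46 and 20.1 CPM in germline-like nuclei and at 218, 217, 151 and 345 CPM in somatic-like nuclei, a mean log2 ratio of -4.31 ± 0.42 (SD, n = 4), and was called lower. mai-2, on chromosome IV, was at 141, 155, 126 and 110 CPM against 96.1, 101, 88.0 and 93.1 CPM, a mean of 0.48 ± 0.17 (SD, n = 4), and was not called.

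In the respiratory chain the highest and the lowest gene of a complex were in several cases copies of the same subunit. For complex I, with 13 of the 14 genes found past the minimum, 1 was called higher and none lower, and the extremes were nduf-2.2, on chromosome III, at 1.66 and gas-1, on X, at -1.14, which both encode the 49 kDa core subunit. For complex II, with 1 of 5 genes called higher and 1 lower, the extremes were sdha-2, on chromosome I, at 1.71 and sdha-1, on X, at -2.05. Both encode the flavoprotein subunit. For complex III, with 1 of 11 genes called higher and 2 lower, they were ucr-2.3, on chromosome III, at 1.41 and ucr-2.2, on X, at -1.65, both for core protein 2. No gene of complex IV (7 genes) was called, and cyc-2.1, the cytochrome c gene past the minimum, and ant-1.1, the main ADP/ATP carrier, had ratios of -0.43 and -0.26. Of 21 genes of the vacuolar ATPase, a proton pump related to ATP synthase, 2 were called higher and 2 lower. Over all 7538 genes 30.9% were called higher and 29.2% lower, so the counts for these complexes are no excess. These lists' medians ran from -0.43 to 0.74 against 0.77 for all genes, and 8 of 22 listed complex I symbols were not found in the files.

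Over 35 class and library groups the levels of asb-1 and asb-2 were inversely related (Pearson r = -0.70 of log2(CPM + 10), across groups that share libraries). Those of asg-1 and asg-2 were less so (r = -0.21). asb-1 and asg-1 went together (r = 0.66), as did asb-2 and asg-2 (r = 0.83). atp-2, atp-3, atp-4 and atp-5 had values of 0.73 to 0.89 with each other. Among 14238 genes those most like asb-1 were xpa-1, a DNA repair gene, dnsn-1 and H34C03.2 (r = 0.90, 0.89 and 0.89), none of them on X. Those most like asb-2 were iff-2, a translation factor gene, ucr-2.1 and W05H9.3 (r = 0.90, 0.84 and 0.84), the last 2 on X. Those most like asg-1 were hsf-2, hpo-32 and mage-1 (r = 0.77, 0.76 and 0.76), all on chromosome I as asg-1 is. Those most like asg-2 were the ATP synthase gene F58F12.1, cyc-2.1 and ant-1.1 (r = 0.87, 0.84 and 0.84), all genes of oxidative phosphorylation on autosomes.

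Between libraries, the members were compared with ctrl within germline-like and within somatic-like nuclei. The 3 comparisons share the ctrl library. In germline-like nuclei of ent-1KO;ent-2KD 7 of 8 members were higher than in ctrl, and asb-1 was the exception. The log2 ratio was 0.84 (0.74 to 0.95) for atp-3, 0.71 for asb-2, 0.62 for atp-2, 0.60 for asg-2, 0.59 for atp-4, 0.54 for asg-1 and 0.47 (0.37 to 0.56) for atp-5, each with an interval above 0, and -0.04 (-0.16 to 0.08) for asb-1. In levels atp-3 was at 246 CPM against 137 CPM in ctrl, and asb-1 at 128 CPM against 131 CPM. The median of the members was 0.59 beside a median of 0.03 over 6172 genes, whose 5th and 95th percentiles were -1.03 and 1.13. None of the 8 members passed 2-fold, and of all genes 12% did, 6.64% higher and 5.33% lower. For each of the 7 higher genes the ratio exceeded the widest ratio between any pair of ctrl, ent-1KO and ent-2KO, which was 0.28 to 0.53. This did not hold without integration, where the ratios of these genes to ctrl were 0.09 for atp-5 to 0.45 for atp-3 and each lay under its widest ratio. Nor did it hold for asg-1 and atp-5 when ent-1KO, which shares the mutation, took the place of ctrl (0.26 and 0.27). The share of all genes past their own widest ratio was not counted. All genes spread more widely in ent-1KO;ent-2KD than in the single knockouts. There the 5th and 95th percentiles relative to ctrl were -0.32 and 0.39 in ent-1KO and -0.30 and 0.23 in ent-2KO.

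In the single knockouts the differences were smaller. In germline-like nuclei of ent-1KO 7 of 8 members were higher than in ctrl, by up to 0.28 for asg-1, with 5 intervals above 0, a median of 0.14 and 0.01 over all genes. In those of ent-2KO 7 of 8 were lower, down to -0.45 for asb-2 and -0.42 for asg-2, with 6 intervals under 0, a median of -0.21 and -0.01 over all genes. No member passed 2-fold in either, beside 0.289% of all genes in ent-1KO and 0.843% in ent-2KO. The share of all genes whose interval excluded 0 was not counted in any comparison between libraries. As the intervals cover counting error alone, the interval counts cannot tell whether the members exceed other genes.

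Somatic-like nuclei gave the same order of libraries for most members. In ent-1KO;ent-2KD asb-2 was at 0.95 (0.75 to 1.16), atp-3 at 0.94, atp-2 at 0.65, asg-2 at 0.63, atp-4 at 0.59, atp-5 at 0.50 and asg-1 at 0.25 (-0.02 to 0.53) relative to ctrl, and asb-1 was at -0.72 (-1.05 to -0.38). The median of the members was 0.61 and that of 8172 genes -0.24. No member passed 2-fold, and 15.8% of all genes did. Relative to ctrl, 8 of 8 members were higher in somatic-like nuclei of ent-1KO (median 0.24, with 3 intervals above 0) and 8 of 8 lower in those of ent-2KO (median -0.20, with 3 intervals under 0), again none past 2-fold, beside 4.77% and 4.33% of all genes. In each of the 6 somatic classes asb-1 was lower in ent-1KO;ent-2KD than in ctrl, but the interval excluded 0 in hypodermis alone (-1.83, from -2.97 to -0.62, with 12 UMIs in ctrl). By contrast, asb-2, asg-2, atp-2, atp-3, atp-4 and atp-5 were higher in 6 of 6, while asg-1 was higher in 4 of 6. In neuron-like nuclei, for example, asb-2 was at 259 CPM against 93.7 CPM and asb-1 at 45.8 CPM against 64.9 CPM, a log2 ratio of -0.52 (-1.18 to 0.21). The asb-1 share was lowest in ent-1KO;ent-2KD in 6 of 6 somatic classes, with an interval under those of the other 3 libraries in 2 of 6, and the asg-1 share was lowest in 4 of 6, with 0 of 6 such intervals. The 2 classes with such asb-1 intervals were neurons and sheath and spermatheca. In neurons and in the intestine the asb-1 share in ent-1KO;ent-2KD was 15% (11.6% to 18.9%) and 13.3% (10.3% to 16.9%) against 40.9% (29.0% to 53.7%) and 25% (15.8% to 36.3%) in ctrl. The intestine intervals of these libraries overlapped.

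**Figure D5:**
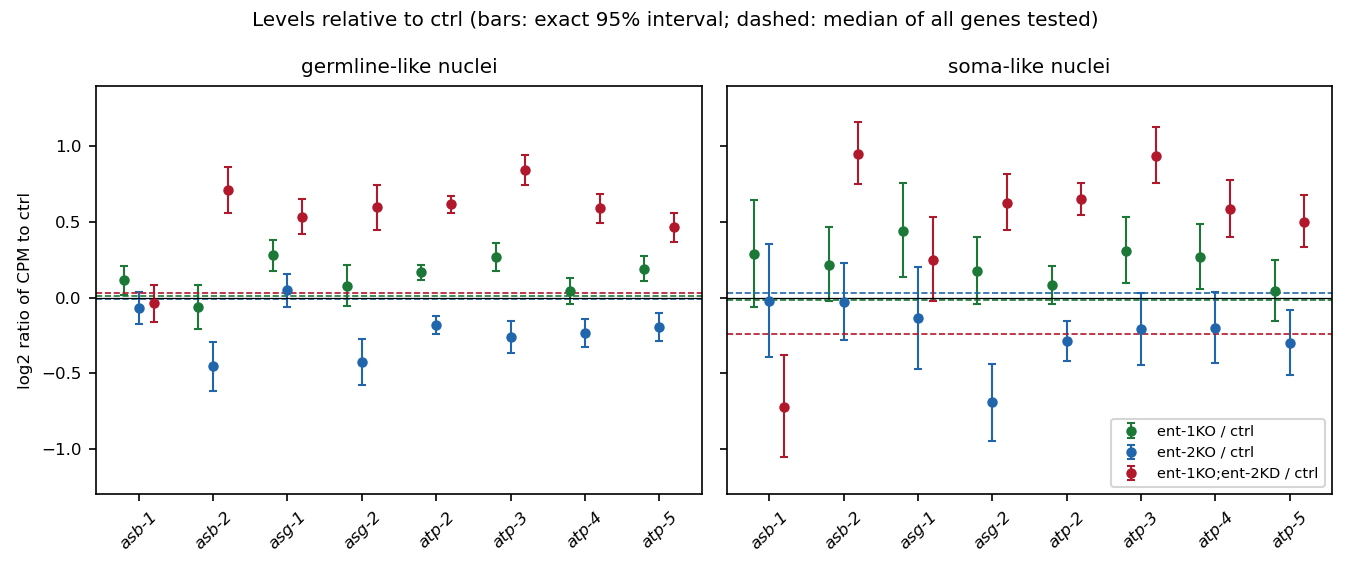
Log2 ratio of CPM to ctrl for each gene in germline-like (left) and soma-like (right) nuclei, 1 point per library with exact 95% intervals. Dashed lines give the median of all genes tested in that library. The ent-1KO;ent-2KD points lie between 0.47 and 0.84 in germline-like nuclei except asb-1 at -0.04, and in soma-like nuclei asb-1 lies at -0.72.

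Several other measures moved with the ent-1KO;ent-2KD library. In its germline-like nuclei the ribosomal protein share of UMIs was 8.11% against 7.27% in ctrl and 7.13% to 7.76% in the single knockouts, and the share of mitochondrially encoded genes 0.711% against 0.271% to 0.330%. The 35 neuron markers there summed to 445 CPM against 266.2 to 290.4 CPM, the body wall muscle markers to 1666 CPM against 1142 to 1375 CPM, and the germline markers to 12781 CPM against 14436 to 16120 CPM. In somatic-like nuclei the germline markers summed to 2594 CPM against 4825 to 5616 CPM, while asb-1 was at 34.4 CPM against 55.7 to 69.2 CPM. With free RNA subtracted at its upper limit the asb-1 share in the soma was 3.34% in ent-1KO;ent-2KD and 11.1%, 17.5% and 10.0% in ctrl, ent-1KO and ent-2KO. In the germline it was 74.6% against 82.2%, 86.4% and 86.7%. The part of these shifts in the differences between libraries was not tested, and genotype and library cannot be told apart.

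The difference between ent-1KO;ent-2KD and ctrl depended on how nuclei were grouped. The median of the members in germline-like nuclei was 0.22 when the libraries were clustered without integration, and 0.39 when germline-like clusters were weighted equally. The other ATP synthase subunits were less uniform in that comparison than the members, with 4 of 7 above 0 and a median of 0.22, from -0.23 for hpo-18, an epsilon subunit, and -0.09 for Y82E9BR.3 to 0.90 for Y69A2AR.18, the gamma subunit, and ant-1.1 was at 0.0014. Lists of the respiratory chain had medians of 0.34 for complex I, 0.37 for complex II, 0.32 for complex III and 0.24 for complex IV. The copies of one subunit again differed. sdha-1 was at 1.07 (198 UMIs against 133) and sdha-2 at -0.89, and gas-1 at 1.03 (201 UMIs against 138) and nduf-2.2 at -0.38. mai-1 was at 1.51 (150 UMIs against 74) and mai-2 at -0.36. In each case the higher copy is on X. The median over all X-linked genes was not taken in this comparison, so whether these copies differ from other X-linked genes was not tested.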

How the data were processed

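Nuclei sorted from whole day 1 worms were sequenced by droplet 3′ RNA-seq (10x Genomics), with a single library for each of the 4 conditions. The authors aligned reads to the WS282 genome with Cell Ranger, named as version 6.0 in the methods and 6.1.2 in the matrix header, and deposited raw UMI counts, with no normalization. All 4 matrices (52147 barcodes, a number below that of nuclei given in the study) were used. The lowest barcode had 500 UMIs, so a minimum of 200 genes and a limit of 10% mitochondrial UMIs removed none. Scrublet (scanpy 1.11.5) doublets were removed at 0.8% per 1000 barcodes. Libraries were integrated by CCA in Seurat 5.3.0 (R 4.3.3; 1997 variable genes, with the members and the listed respiratory genes kept out, 30 dimensions, Louvain resolution 0.8, 37 clusters). Each cluster was scored for every class by the median, over that class's markers, of log2(CPM + 10) relative to the median of the clusters. The best class gave the name if its score reached 0.5 and 3 of its markers were raised, and a cluster stayed unnamed when its 10 leading genes favoured another class or its ribosomal protein share was over 1.5 times the median. The classes were rebuilt here and may differ from those of the study.

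UMIs were summed per class and library and scaled to CPM. Log2 ratios had 0.5 UMIs added, and intervals were exact (Poisson, conditional binomial, Clopper-Pearson). Genes were tested for the background at 20 CPM in at least 1 side and 50 UMIs over both. These steps were tested on simulated data. Gene positions and names came from the Ensembl annotation of WBcel235, which held all 46926 IDs. That build was not compared with WS282, so the coordinates describe WBcel235. Multi-mapping of reads between the copies was not checked. The text names all 8 members, named subunit, inhibitor, cytochrome c and carrier genes, the highest and lowest gene of each list, and the 3 genes most like each copy. sdha-1, sdha-2, gas-1, nduf-2.2 and ucr-2.1 fall under these rules. The members and lists were chosen with earlier results of these data known. Free RNA was subtracted as the library profile at the share that makes markers of the other side vanish (34.9% to 48.4% of UMIs), an upper limit.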

Additional observations from a re-analysis of the deposited data

Results flagged for a closer look

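For 2 of the 8 genes the difference from ctrl had opposite signs in germline-like and somatic-like nuclei of the same library. asb-2 in ent-1KO had a log2 ratio to ctrl of -0.06 in germline-like and 0.22 in somatic-like nuclei. asg-1 in ent-2KO had 0.05 in germline-like and -0.14 in somatic-like nuclei. The intervals of all 4 values included 0, each rests on 1 library per condition, and the difference between the tissues was not tested.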

How the results depend on the processing

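Of 411 alternative values 329 stayed within the spread or interval of the value reported and none of those past 2-fold changed sign. For the main results 74 stayed and 29 moved, and for the rest 255 stayed and 53 moved. Subtracting free RNA at its upper limit moved the mean log2 germline to soma ratios to 3.09 (asb-1), -2.48 (asb-2), 1.53 (asg-1) and -2.34 (asg-2). The mean shares moved to 82.5% and 10.5% for asb-1 and 80.6% and 22.1% for asg-1 in germline and soma. Naming ribosomal-rich clusters gave 0.93, -1.46, 0.34 and -1.48 for the same 4 genes. Resolution 0.4 gave -1.34 for asb-2 and -1.29 for asg-2, and counting the pqn-72 cluster as soma, chosen after seeing the data, gave 1.02 for asg-1. The count of members at least 2-fold higher in 4 of 4 libraries fell from 1 to 0 with doublets kept, with ribosomal-rich clusters named and with somatic classes weighted equally. The count of members at least 2-fold lower rose from 0 to 2 at resolution 0.4, with ribosomal-rich clusters named and with free RNA subtracted, and to 1 at resolution 1.6, without integration, with nuclei of at least 1000 UMIs and with equal weights. The median of the members in ent-1KO;ent-2KD over ctrl was 0.22 without integration, 0.41 with median-of-ratios scaling, 0.39 with germline clusters weighted equally, and 0.48 against ent-1KO, the last chosen after seeing the data. asb-1 in that comparison ranged from -0.22 to 0.18. Without the CPM minimum 13480 genes were compared, 2643 (19.6%) higher and 5305 (39.4%) lower in the germline against 2326 and 2199, and 31.8% of 14143 genes passed 2-fold in ent-1KO;ent-2KD. The causes of these shifts were not tested. No paired analysis was possible because each condition had 1 library. Sparse counts limit the smaller classes, with 4 to 19 UMIs of asb-1 or asb-2 in some groups.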
